A study of Homo sapiens with 16 samples.

Results

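Panobinostat, an inhibitor of histone deacetylases given at 60 nM for 24 h, was compared with untreated control cells. The cells were NCI-H1688, an established line from small cell lung cancer, labelled as epithelial. The comparison used 2 panobinostat libraries and 2 control libraries of the 16 RNA-seq libraries in the series. The labels call the duplicates biological. Control cells are labelled untreated, whereas the series' design names a DMSO vehicle. The panobinostat libraries stood in one deposited table and the control libraries in another, so that table and drug cannot be told apart in this comparison. Both tables were joined row by row on the gene's identifier. Genes were kept only where their deposited position overlapped no other gene, because the tables count overlapping genes differently. This left 21923 of 44591 gene rows, among them 10648 of 19233 protein-coding rows. JQ1, an inhibitor of the BET bromodomain proteins given at 28 µM for 24 h, stood in the same table as panobinostat and also had 2 libraries. It serves below as a comparison in which the table does not change. JQ1 and panobinostat are different drugs at doses that were not matched, so a gene at the same level under both need not be untouched by either. The control libraries of the series were in the first table alone.

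Histone deacetylases take acetyl groups off the lysines of histone tails and of many other proteins. Acetylated histone tails loosen chromatin and are bound by bromodomain proteins. Inhibitors of these enzymes are known to raise the RNA of many silent or low genes, to lower that of many highly transcribed genes and to arrest the cell cycle. Small cell lung cancer is classed by its neuroendocrine transcription factors, NEUROD1 among them, and by YAP1 where these are missing.

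The libraries held 39996881 and 41831974 counted reads with panobinostat and 43289277 and 53877601 in control. Kept genes took 50.16% and 50.45% of these reads with panobinostat and 50.22% and 50.23% in control. Over all gene rows, overlapping ones included, read shares by gene type differed. Protein-coding genes took 95.17% and 94.77% with panobinostat, 94.98% and 94.88% with JQ1 and 97.96% and 98.08% in control. Antisense genes took 0.58% and 0.59% with panobinostat, 0.62% and 0.63% with JQ1 and 0.1% and 0.1% in control. The part of the table in these shares was not tested. Levels are given as CPM, read counts scaled to a common library size after TMM scaling. A gene with 0 reads in 1 control library could be present at up to 0.0748 CPM or 0.0597 CPM, taking 3 reads as the floor, which covers counting error only. NEUROD1 and INSM1, factors that mark neuroendocrine small cell lung cancer, had 0 reads in both panobinostat and both control libraries. These factors were therefore not read in either state. DLL3 and CHGA, other markers of this cancer, were read at low levels. DLL3 had 3.36 and 2.97 CPM with panobinostat and 1.3 and 0.716 CPM in control, a log2 change of 1.67 ± 0.34. CHGA had 34 and 17 reads with panobinostat and 5 and 13 in control, and did not pass. Markers of other cell types were low. Of 5 tested fibroblast markers 4 rose (80%, beside 32.8% of all kept genes tested) and 1 did not pass. Members silent in control, such as PDGFRA, could be tested only because they were read elsewhere. The summed level of the kept fibroblast markers was 54.9 to 65.2 CPM with panobinostat and 20 to 20.6 CPM in control. COL1A1 alone had 63.6 and 52.2 CPM with panobinostat and 19.9 and 20.3 CPM in control. Endothelial markers summed to 7.02 to 9.49 CPM with panobinostat and 21 to 21.4 CPM in control, with EMCN at 0 reads. CDH5 carried this sum, with 4.57 and 3.08 CPM with panobinostat and 20.7 and 20.5 CPM in control, while PECAM1 and VWF rose and 1 tested marker did not pass. The leukocyte sum was 15.0 to 15.6 CPM with panobinostat and 1.30 to 1.81 CPM in control, with MS4A1 at 0 reads. CD14 alone had 14.8 and 15.4 CPM with panobinostat and 1.27 and 1.37 CPM in control. The part of these markers in the results was not tested.

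Of the 10066 kept genes with enough reads to test, 3305 were higher with panobinostat than in control, which is 32.8% of the genes tested. A further 3325, or 33.0%, were lower, and 3436 did not pass (edgeR's quasi-likelihood test, adjusted p under 0.05 over all 22263 genes tested). The median log2 change was 0.03. TMM scaling places the centre of the changes near 0, so neither this median nor the even split can show a shift shared by most genes. With DESeq2's size factors in the same fit, 3474 genes were higher and 3128 lower, with a median of 0.1. Large rises were more numerous than large falls. Rises of more than 4-fold were fitted for 1538 genes and falls of more than 4-fold for 536. Past 16-fold the counts were 713 rises and 54 falls, which include genes with 0 control reads whose fitted fold rests on the prior count and is no bound. More genes were also detected with panobinostat: 7171 and 7200 kept genes reached 1 CPM in the panobinostat libraries, 6615 and 6674 in the JQ1 libraries and 6682 and 6685 in the control libraries. All of these are shares of the RNA sequenced, and in bulk samples fewer cells in a state and less RNA per cell cannot be told apart.

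**Figure D1:**
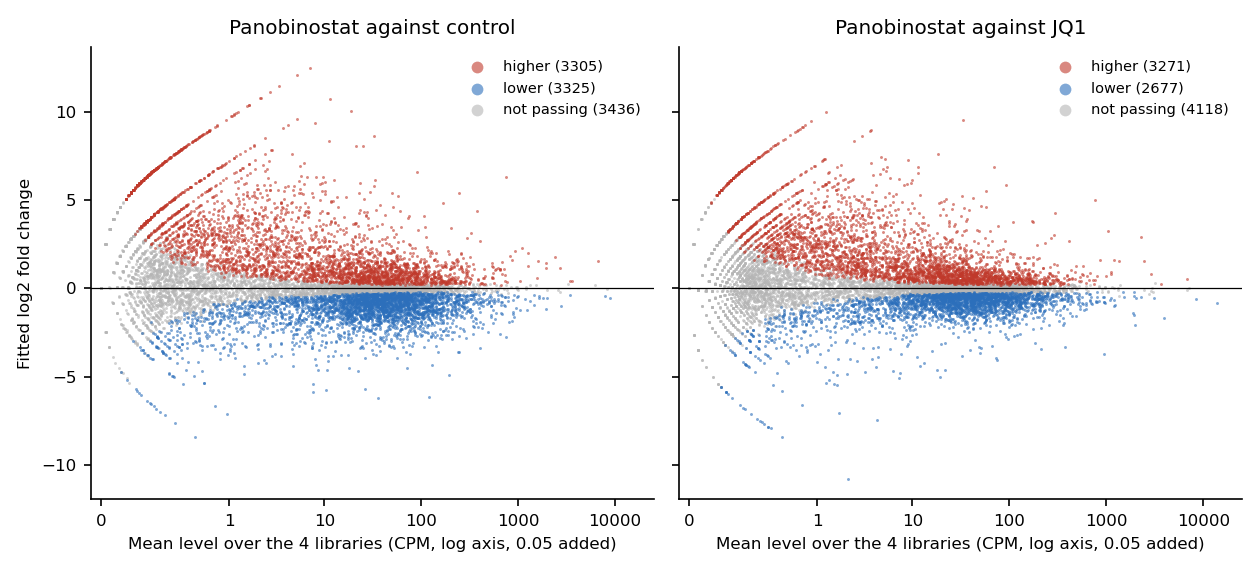
Fitted log2 fold change of each kept gene (vertical axis) against its mean level over the 4 libraries compared (horizontal axis, CPM on a log axis with 0.05 added), for panobinostat against control on the left and panobinostat against JQ1 on the right. Red points passed as higher (3305 and 3271), blue points as lower (3325 and 2677) and grey points did not pass. The rises reach farther from 0 than the falls, mostly among genes of low mean level, and the arcs at the left edge are genes with 0 or a few reads in one group.

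Against JQ1, within a single table, 3271 kept genes were higher with panobinostat (32.5%) and 2677 were lower (26.6%), with a median log2 change of 0.10. The table itself was tracked by counting genes for which every library of the second table lay beyond every library of the first. Among the 3305 rises there were 833 such genes (25.2%), and among the 3325 falls there were 1638 (49.3%). Over all 10066 kept genes tested the shares were 8.6% above and 16.8% below. For those genes no library of the series separates the table from the drugs. The part of the table in these calls was not tested.

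The largest rises, taken among kept protein-coding genes at 10 CPM or more, were of genes that the control scarcely expressed, and several of them are known from neurons. NOVA2, a neuronal RNA-binding protein that directs splicing, had 25 and 20.4 CPM with panobinostat and 0.0249 and 0 CPM in control. SLC17A7, which loads glutamate into synaptic vesicles, stood at 40.8 and 35.2 CPM with panobinostat against 0.0498 and 0.0199 CPM in control. SYT11, a synaptotagmin of vesicle membranes, had 63.7 and 67.6 CPM with panobinostat and 0.224 and 0.119 CPM in control. For all 3 genes the panobinostat libraries lay close together and far above the control libraries. The log2 change of SYT11 was 8.60 ± 0.25 (± is an approximate SE; adjusted p = 3.03e-16). NOVA2 had 1964 reads with panobinostat and 1 in control, a ratio of library-scaled levels of 2048.2 with an exact 95% counting interval of 367.0 to 80939.8. SLC17A7 had 3285 reads with panobinostat and 3 in control, a ratio of 1141.9 with an interval of 390.0 to 5540.2.

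The neuron-associated rises continued below these genes. HPCAL4, of the neuronal calcium sensor family, had 42.6 and 42.0 CPM with panobinostat and 0.0498 and 0.239 CPM in control, a log2 change of 8.08 ± 0.37 (adjusted p = 1.72e-13). TMEM59L, a membrane protein made mainly in brain, had 49.5 and 51.5 CPM with panobinostat and 0.274 and 0.119 CPM in control, a log2 change of 8.05 ± 0.34 (adjusted p = 5.49e-14). TUBB2B, a beta-tubulin of developing neurons, had 12.1 and 12.4 CPM with panobinostat and 0.0498 and 0.119 CPM in control, a log2 change of 7.07 ± 0.40 (adjusted p = 4.75e-12). Tubulin genes are alike in sequence, and the sources used here do not say how reads that fit several of them were counted. ATCAY, which encodes the brain protein caytaxin, had 11.4 and 9.61 CPM with panobinostat and 0 reads in both control libraries. It was at least 316-fold higher with panobinostat, against a floor of 3 reads over both control libraries.

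Not all of the largest rises are neuronal genes. CD70, the ligand of the lymphocyte receptor CD27, had 13.8 and 14.7 CPM with panobinostat and 0 reads in control, and was at least 430-fold higher. PHOSPHO1, a phosphatase of bone mineralisation, had 16.2 and 16.1 CPM with panobinostat and 0 and 0.0398 CPM in control. Its 1398 reads against 2 gave a ratio of 729.0 with an interval of 201.0 to 6025.2. CCNA1, the germ-cell cyclin A1, had 23.3 and 21.2 CPM with panobinostat and 0.0748 and 0.0597 CPM in control, a log2 change of 8.33 ± 0.34 (adjusted p = 3.57e-14). The rule that named these 10 genes took only genes whose panobinostat and control levels did not overlap. Each of the 10 was also higher with panobinostat than with JQ1, by log2 changes from 2.74 for HPCAL4 to 6.67 for ATCAY. They were thus far above control and above the other drug of their own table.

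Promoters of 8 of the 10 genes were in the RefSeq table used (GRCh38.p14, from 250 bases before to 50 bases after the start). They were searched for GGGCGG on both strands, the core of the GC box that Sp-family factors bind. Of the 8 promoters, 7 held it (87.5%), beside 67.6% of the 6316 promoters of kept protein-coding genes tested and 44.6% of all 27305 promoters. CCAAT was in 5 of the 8 (62.5%, beside 37.8% of the 6316), TATAAA and CACGTG in 0 of the 8 (7.11% and 9.34% of the 6316), and TGACGTCA in 1 of the 8 (12.5%, beside 3.09%). Of the 10 largest falls, 6 had a promoter in the table, and 4 of the 6 held GGGCGG (66.7%). The 3 below belong to genes nearly silent in control and are shown 5′ to 3′ along the gene, with GGGCGG or its complement CCGCCC in capitals. NOVA2 is at chr19:45973816-45974115, SLC17A7 at chr19:49441478-49441777 and TUBB2B at chr6:3227604-3227903, each on the minus strand.
NOVA2: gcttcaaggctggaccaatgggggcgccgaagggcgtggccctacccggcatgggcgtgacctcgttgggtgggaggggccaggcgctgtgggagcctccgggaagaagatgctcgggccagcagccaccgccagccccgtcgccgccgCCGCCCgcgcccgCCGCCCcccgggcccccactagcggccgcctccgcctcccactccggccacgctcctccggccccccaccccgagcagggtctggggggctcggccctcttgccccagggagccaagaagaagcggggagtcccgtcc
SLC17A7: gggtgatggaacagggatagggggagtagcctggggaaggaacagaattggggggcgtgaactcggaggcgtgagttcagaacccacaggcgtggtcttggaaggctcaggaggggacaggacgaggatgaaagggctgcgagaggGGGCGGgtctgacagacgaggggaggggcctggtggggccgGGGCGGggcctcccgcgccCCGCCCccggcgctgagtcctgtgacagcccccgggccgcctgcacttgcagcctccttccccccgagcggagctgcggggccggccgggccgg
TUBB2B: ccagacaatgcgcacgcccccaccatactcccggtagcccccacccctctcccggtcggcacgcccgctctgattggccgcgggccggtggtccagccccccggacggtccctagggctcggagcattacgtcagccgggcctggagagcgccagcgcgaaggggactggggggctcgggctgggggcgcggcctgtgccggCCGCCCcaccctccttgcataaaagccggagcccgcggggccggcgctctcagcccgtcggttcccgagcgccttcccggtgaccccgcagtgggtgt
The matches number 2 in NOVA2, 3 in SLC17A7 and 1 in TUBB2B. A match describes these letters and is no evidence of binding.

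The largest falls included secreted factors, signalling genes and transcription factors that the control expressed well. FOSL1, the AP-1 subunit FRA1, had 3.95 and 2.90 CPM with panobinostat and 245 and 236 CPM in control, a log2 change of -6.13 ± 0.15 (adjusted p = 2.13e-17). FST, the activin antagonist follistatin, had 12 and 13.8 CPM with panobinostat and 386 and 372 CPM in control, a log2 change of -4.87 ± 0.14 (adjusted p = 2.45e-16). SPHK1, a kinase that makes sphingosine 1-phosphate, had 12 and 12.8 CPM with panobinostat and 258 and 240 CPM in control, a log2 change of -4.33 ± 0.12 (adjusted p = 1.73e-16). These 3 genes were among the well expressed genes of the control and fell to low levels in both panobinostat libraries. CXCL2, a chemokine that attracts neutrophils, had 5.99 and 6.03 CPM with panobinostat and 138 and 133 CPM in control, a log2 change of -4.49 ± 0.14 (adjusted p = 5.09e-16). TFAP4, a transcription factor known as a MYC target, had 1.54 and 1.73 CPM with panobinostat and 42.1 and 43.1 CPM in control, a log2 change of -4.70 ± 0.18 (adjusted p = 1.92e-14).

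The remaining falls of this kind were of ESM1, a secreted proteoglycan, KCTD15, a regulator of neural crest development in zebrafish, KRT6B, a keratin, CHDH, choline dehydrogenase, and BEND3, a chromatin repressor. Their log2 changes ran from -5.86 ± 0.24 for ESM1 to -4.50 ± 0.19 for BEND3. Several of these genes stood at about the same level with JQ1. ESM1 had 0.237 and 0.270 CPM with panobinostat and 0.177 and 0.176 CPM with JQ1. KCTD15 had 1.25 and 0.743 CPM with panobinostat and 0.988 and 0.755 CPM with JQ1. FST had 11.9 and 10.5 CPM with JQ1, close to its panobinostat levels. Of the 10 falls, 5 did not pass between panobinostat and JQ1: ESM1, KCTD15, KRT6B, FST and TFAP4. FOSL1 remained lower with panobinostat than with JQ1, at a log2 difference of -2.07 ± 0.14 (adjusted p = 1.72e-10), and so did SPHK1, CXCL2 and CHDH. BEND3 was higher with panobinostat than with JQ1, at 0.75 ± 0.24 (adjusted p = 0.0119).

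**Figure D2:**
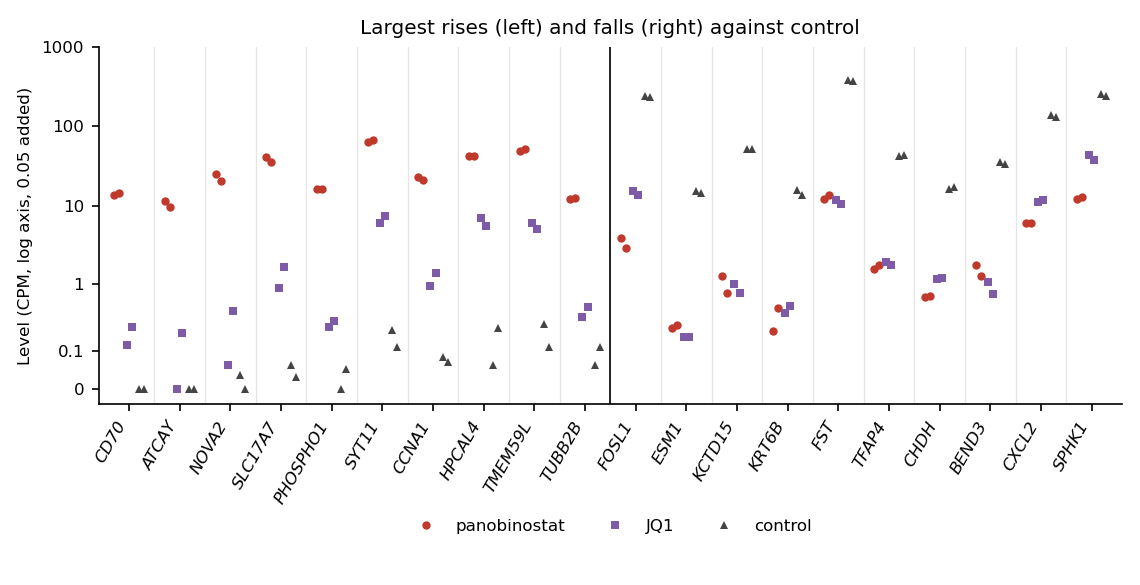
Level of each gene in each library (vertical axis, CPM on a log axis with 0.05 added), for the 10 largest rises (left of the black line) and the 10 largest falls (right of it) against control. Red circles are the 2 panobinostat libraries, purple squares the 2 JQ1 libraries and black triangles the 2 control libraries. Panobinostat points stand above JQ1 and control for every rise, whereas for falls such as ESM1, KCTD15 and FST panobinostat and JQ1 points lie together below control.

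Genes that passed in the same direction against control and against JQ1 were ranked by the smaller of both changes, which picks genes that differ from both groups. The 8 rises so ranked were ATCAY, NOVA2, CD70 and PHOSPHO1, described above, and CYP24A1, RASGRP2, PMEL and GFY. PMEL, a structural protein of pigment granules, had 180 and 183 CPM with panobinostat, 2.79 and 3.5 CPM with JQ1 and 1.92 and 1.91 CPM in control. CYP24A1, which degrades active vitamin D, had 67.5 and 65.4 CPM with panobinostat, 0.0507 and 0.126 CPM with JQ1 and 0.573 and 1.27 CPM in control. Both genes stood near their control level or below it with JQ1. RASGRP2, an exchange factor for Rap and Ras, had 10.7 and 10.8 CPM with panobinostat, 0.127 and 0.0503 CPM with JQ1 and 0.174 and 0.139 CPM in control. GFY, an olfactory signalling regulator of the Golgi, had 20.7 and 18.8 CPM with panobinostat, 0.279 and 0.277 CPM with JQ1 and 0.573 and 0.318 CPM in control. Log2 changes against control were 6.57 ± 0.24 for PMEL, 6.13 ± 0.24 for CYP24A1, 6.10 ± 0.44 for RASGRP2 and 5.50 ± 0.34 for GFY.

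The 8 falls ranked this way included several regulators of transcription and protein turnover. FOXA1, a pioneer transcription factor of lung and other endoderm, had 8.92 and 9.43 CPM with panobinostat, 92.8 and 95.1 CPM with JQ1 and 64.4 and 68.4 CPM in control. TRIM8, a ubiquitin ligase, had 32.8 and 34.2 CPM with panobinostat, 216 and 201 CPM with JQ1 and 222 and 216 CPM in control. FBXW4, an F-box protein, had 4.83 and 4.14 CPM with panobinostat, 39.9 and 37.2 CPM with JQ1 and 47.7 and 44.3 CPM in control. For all 3 genes both panobinostat libraries lay well below every JQ1 and control library. The log2 changes against control were -2.86 ± 0.11 for FOXA1 (adjusted p = 1.88e-14), -2.71 ± 0.10 for TRIM8 (adjusted p = 1.18e-14) and -3.36 ± 0.12 for FBXW4 (adjusted p = 9.89e-15). TCF25, a subunit of the ribosome quality control complex, had 23.7 and 23.3 CPM with panobinostat, 173 and 167 CPM with JQ1 and 130 and 119 CPM in control. The others were FOXQ1, a forkhead factor, CEBPD, the transcription factor C/EBP delta, EME2, a partner of the MUS81 nuclease, and CCDC149. Their log2 changes against control were between -3.96 and -2.36.

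**Figure D3:**
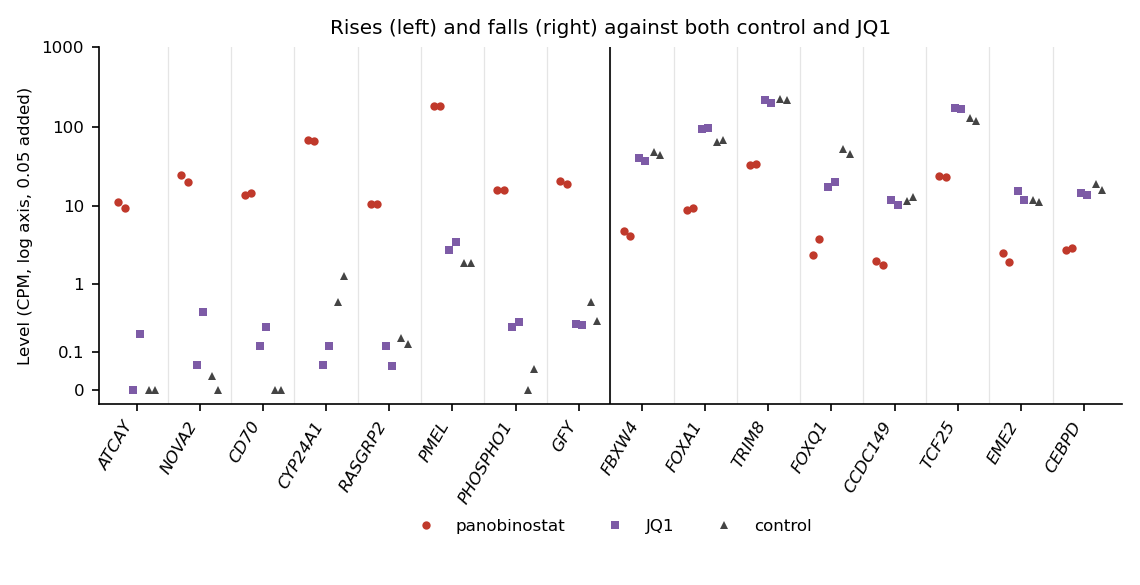
Level of each gene in each library (vertical axis, CPM on a log axis with 0.05 added), for the 8 rises (left of the black line) and 8 falls (right of it) that passed in the same direction against control and against JQ1. Red circles are the 2 panobinostat libraries, purple squares the 2 JQ1 libraries and black triangles the 2 control libraries. PMEL at 180 and 183 CPM and FOXA1 at 8.92 and 9.43 CPM stand apart from both other groups.

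The targets of the drug and their partners were followed first among the gene lists. The share of all kept genes called, 32.8% higher and 33.0% lower against control, is the background for the count of every list against control. For counts against JQ1 the background is 32.5% higher and 26.6% lower. Of 11 zinc-dependent deacetylase genes (HDAC), 5 were kept and tested, and 6 overlapped another gene and are not reported. HDAC11 had 24.5 and 26.0 CPM with panobinostat and 12.5 and 13.6 CPM in control, a log2 change of 0.95 ± 0.13 (adjusted p = 2.38e-06). HDAC1, a catalytic subunit of nuclear corepressor complexes, had 176 and 165 CPM with panobinostat and 196 and 200 CPM in control, a log2 change of -0.22 ± 0.09 (adjusted p = 0.0303). That call was lost with DESeq2's size factors, at -0.15, and without either control library or the second panobinostat library, at -0.26 to -0.19. HDAC6 had 29.4 and 24.3 CPM with panobinostat and 28.8 and 27.0 CPM in control, and HDAC8 had 11.7 and 12.1 CPM with panobinostat and 13.7 and 15.7 CPM in control. HDAC10 stood at 17.8 and 16.4 CPM with panobinostat and 18.5 and 19.2 CPM in control. These 3 did not pass, at adjusted p of 0.734, 0.113 and 0.444. The fitted change was under 2-fold for each of the 5 kept enzymes. Of the related sirtuins, which use NAD, 2 rose, 1 fell and 1 did not pass among 4 kept. SIRT4 had 2.23 and 2.75 CPM with panobinostat and 0.0498 and 0.0995 CPM in control. SIRT1 had 11.5 and 12.2 CPM with panobinostat and 21.9 and 22.5 CPM in control.

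The opposing enzymes and the readers of acetyl marks were mostly lower. Of 14 such genes 6 were kept, of which 5 fell (83.3%, beside 33.0% of all kept genes) and 1 rose (16.7%, beside 32.8%), with a median log2 change of -1.53 beside 0.03. CREBBP, the acetyltransferase CBP, had 31.9 and 24.4 CPM with panobinostat and 166 and 167 CPM in control, a log2 change of -2.57 ± 0.13 (adjusted p = 5.77e-13). KAT2A, the acetyltransferase GCN5, had 29.9 and 25.9 CPM with panobinostat and 130 and 115 CPM in control, a log2 change of -2.14 ± 0.12 (adjusted p = 2.05e-12). Both were below their control levels with no overlap. KAT2A had 24.9 and 22.6 CPM with JQ1 and did not pass between the drugs, whereas CREBBP was lower with panobinostat than with JQ1, at -1.34 ± 0.12. Against JQ1, 1 of the 6 listed genes was higher (16.7%, beside 32.5%), 4 were lower (66.7%, beside 26.6%) and 1 did not pass. HAT1, which acetylates new histone H4, was the member that rose, by 0.30 ± 0.12 (adjusted p = 0.0365), a call lost without either control library or the second panobinostat library, at 0.19 to 0.31. Of 20 corepressor genes 8 were kept, of which 1 rose, 3 fell and 4 did not pass. MTA2, a subunit of the NuRD complex, had 91.5 and 86.9 CPM with panobinostat and 423 and 414 CPM in control, a log2 change of -2.23 ± 0.09 (adjusted p = 2.40e-14).

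Most genes listed as known from other work to rise with deacetylase inhibitors rose here against control. Of 25 listed genes 17 were kept and tested, of which 13 rose, 1 fell and 3 did not pass, beside the 32.8% and 33.0% of all kept genes. Their median log2 change was 1.84. Against JQ1, 10 of the 17 were higher (58.8%, beside 32.5% of all kept genes) and 5 lower (29.4%, beside 26.6%). The list was chosen with earlier results of these data known, so these counts are no independent support. Ahead of the others after SYT11 was CDKN1C, the cell cycle inhibitor p57, which had 5.11 and 5.47 CPM with panobinostat and 0.0748 and 0.0995 CPM in control. Its log2 change was 5.86 ± 0.49 (adjusted p = 1.69e-09), and against JQ1 it did not pass, at 0.32 ± 0.28. TXNIP, the inhibitor of thioredoxin, had 695 and 691 CPM with panobinostat and 107 and 113 CPM in control. The log2 change of TXNIP was 2.66 ± 0.09 against control (adjusted p = 2.95e-15) and 1.26 ± 0.09 against JQ1 (adjusted p = 2.38e-10). DHRS2, a dehydrogenase also named Hep27 and chosen after its values were seen, had 98.3 and 96.8 CPM with panobinostat and 3.86 and 4.08 CPM in control. PLAUR, the urokinase receptor, was the exception and had 29.6 and 34.7 CPM with panobinostat and 70.5 and 65.1 CPM in control. CDKN1A, the best known of the induced genes, overlapped another gene and was not kept.

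Histone genes divided between both directions. Of 16 linker and core histone genes 10 were kept and tested. Against control 6 rose (60%, beside 32.8% of all kept genes), 2 fell (20%, beside 33.0%) and 2 did not pass. Against JQ1, 0 were higher (beside 32.5%) and 9 lower (90%, beside 26.6%). H2AFX, the variant phosphorylated at DNA breaks, had 97.4 and 96.5 CPM with panobinostat, 422 and 401 CPM with JQ1 and 602 and 575 CPM in control. HIST2H2BE had 10.3 and 10.4 CPM with panobinostat, 79.2 and 75.9 CPM with JQ1 and 3.49 and 2.49 CPM in control. H2AFJ had 63.9 and 65.0 CPM with panobinostat and 20.8 and 20.5 CPM in control. Replication-dependent histone mRNAs lack a poly(A) tail and these libraries were made from poly(A) RNA, so the levels cover the tailed forms. The fall of HIST1H1E, at -1.26, lost its call without the first control library, at -0.43. Reads of near-identical histone genes may also be shared.

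Genes of the cell cycle were lower as groups. Of 32 genes of the G1/S transition and DNA replication, 23 were kept and tested, and all 23 fell, beside 33.0% of all kept genes. Their median log2 change was -2.14. MCM5, a subunit of the replicative helicase, had 11.5 and 11.7 CPM with panobinostat and 116 and 118 CPM in control, a log2 change of -3.33 ± 0.12 (adjusted p = 3.82e-15). UNG, a glycosylase that removes uracil from DNA, had 14.4 and 15.8 CPM with panobinostat and 143 and 145 CPM in control, a log2 change of -3.25 ± 0.11 (adjusted p = 1.31e-15). The groups did not overlap for either gene. The smallest fall of the list, found by its value, was that of PRIM1, a primase subunit, at -0.67 ± 0.13. Against JQ1 the same 23 genes divided. With panobinostat 11 were higher (47.8%, beside 32.5% of all kept genes), 5 were lower (21.7%, beside 26.6%) and 7 did not pass. MCM5 had 8.77 and 8 CPM with JQ1, a little below its panobinostat levels. PRIM1 was the farthest apart between the drugs, with 12.8 and 15.2 CPM with panobinostat and 3.70 and 3.70 CPM with JQ1.

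Of the 23 genes, 21 had a promoter in the RefSeq table. CCAAT, on either strand, was in 13 of the 21 (61.9%), beside 37.8% of the 6316 promoters of kept protein-coding genes. A site of the kind that E2F factors bind, searched as TTTGGCGC or TTTCGCGC on both strands and chosen after the values were seen, was in 8 of the 21 (38.1%), beside 1.74% of the 6316 and 1.18% of all promoters. GGGCGG was in 14 of the 21 (66.7%, beside 67.6%). The promoters of MCM6 at chr2:135876394-135876693, MCM3 at chr6:52284693-52284992 and E2F1 at chr20:33686336-33686635, each on the minus strand and chosen after the values were seen, show both motifs. Capitals mark the E2F-type letters and CCAAT or its complement ATTGG.
MCM6: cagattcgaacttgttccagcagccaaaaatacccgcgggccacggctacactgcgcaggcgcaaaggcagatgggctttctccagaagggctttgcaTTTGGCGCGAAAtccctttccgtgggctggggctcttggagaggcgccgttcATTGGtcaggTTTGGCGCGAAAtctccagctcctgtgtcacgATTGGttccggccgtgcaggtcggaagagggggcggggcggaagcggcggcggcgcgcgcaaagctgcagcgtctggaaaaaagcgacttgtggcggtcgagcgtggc
MCM3: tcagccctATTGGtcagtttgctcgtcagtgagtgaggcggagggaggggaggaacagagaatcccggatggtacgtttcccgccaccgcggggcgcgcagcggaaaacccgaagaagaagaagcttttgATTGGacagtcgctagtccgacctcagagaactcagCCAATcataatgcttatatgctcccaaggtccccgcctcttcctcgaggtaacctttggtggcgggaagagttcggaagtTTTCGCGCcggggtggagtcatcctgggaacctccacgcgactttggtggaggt
E2F1: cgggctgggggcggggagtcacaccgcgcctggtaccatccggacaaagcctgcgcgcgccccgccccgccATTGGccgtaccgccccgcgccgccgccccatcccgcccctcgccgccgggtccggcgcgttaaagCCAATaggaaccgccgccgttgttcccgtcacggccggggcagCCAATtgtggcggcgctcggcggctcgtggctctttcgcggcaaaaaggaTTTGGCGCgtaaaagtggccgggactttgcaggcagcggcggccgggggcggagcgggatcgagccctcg
In MCM6 the 4 E2F-type matches form 2 stretches, in each of which a match and one on the opposite strand share bases. The 3 genes had levels that fell together: MCM6 had 35.5 and 37.3 CPM with panobinostat and 158 and 161 CPM in control, and MCM3 had 42.0 and 35.9 CPM with panobinostat and 288 and 284 CPM in control. E2F1, itself an activator of replication genes, had 10.6 and 10.4 CPM with panobinostat and 75.8 and 76.9 CPM in control. Their log2 changes were -2.14 ± 0.11, -2.88 ± 0.10 and -2.86 ± 0.14.

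Mitotic and repair genes followed with smaller falls against control. Of 30 G2/M genes 18 were kept and tested, of which 0 rose, 15 fell (83.3%, beside 33.0% of all kept genes) and 3 did not pass, with a median of -1.26. Against JQ1, 3 of the 18 were higher (16.7%, beside 32.5%), 6 lower (33.3%, beside 26.6%) and 9 did not pass. MKI67, the proliferation antigen Ki-67, had 222 and 157 CPM with panobinostat and 1106 and 1128 CPM in control, a log2 change of -2.56 ± 0.13 (adjusted p = 6.05e-13). MYBL2, a transcription factor of dividing cells, had 36.4 and 36.6 CPM with panobinostat and 239 and 213 CPM in control, a log2 change of -2.63 ± 0.12 (adjusted p = 1.80e-13). Of the 9 kept genes of homologous recombination and Fanconi anaemia repair, 6 fell, 0 rose and 3 did not pass. Against JQ1, 2 of the 9 were higher (22.2%), 1 lower (11.1%) and 6 did not pass. BRIP1, a helicase of this repair, had 8.95 and 9.54 CPM with panobinostat and 45.5 and 43.5 CPM in control, a log2 change of -2.27 ± 0.19 (adjusted p = 1.72e-09). CCND1, the G1 cyclin D1, had 202 and 187 CPM with panobinostat and 1307 and 1292 CPM in control, a log2 change of -2.74 ± 0.13 (adjusted p = 1.78e-13). MYBL2, BRIP1 and CCND1 did not pass between panobinostat and JQ1, while MKI67 was lower with panobinostat, at -0.93 ± 0.12. The kinase inhibitor CDKN2D rose by 1.45 ± 0.17 and CDKN2C fell by 1.15 on the log2 scale, so the inhibitors did not move together.

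MYC and its downstream growth genes were lower. MYC had 95.9 and 92.5 CPM with panobinostat, 75.1 and 70.9 CPM with JQ1 and 334 and 322 CPM in control. Its log2 change was -1.80 ± 0.09 against control (adjusted p = 5.00e-13) and 0.37 ± 0.09 against JQ1 (adjusted p = 0.00121). Of the 10 kept genes of the MYC network and ribosome biogenesis, MYC among them, 9 fell (90%, beside 33.0% of all kept genes), 0 rose and 1 did not pass, with a median of -2.10. SRM, which makes spermidine, had 16.3 and 17.6 CPM with panobinostat and 109 and 100 CPM in control. CAD, the first enzyme of pyrimidine synthesis, had 46.0 and 37.0 CPM with panobinostat and 256 and 250 CPM in control. Both lay below control in every library. Cytosolic ribosomal protein genes moved less: of 11 tested 1 rose, 4 fell and 6 did not pass, with a median of -0.08. The largest of these 4 falls was that of RPS23, at -0.69 ± 0.09.

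**Figure D4:**
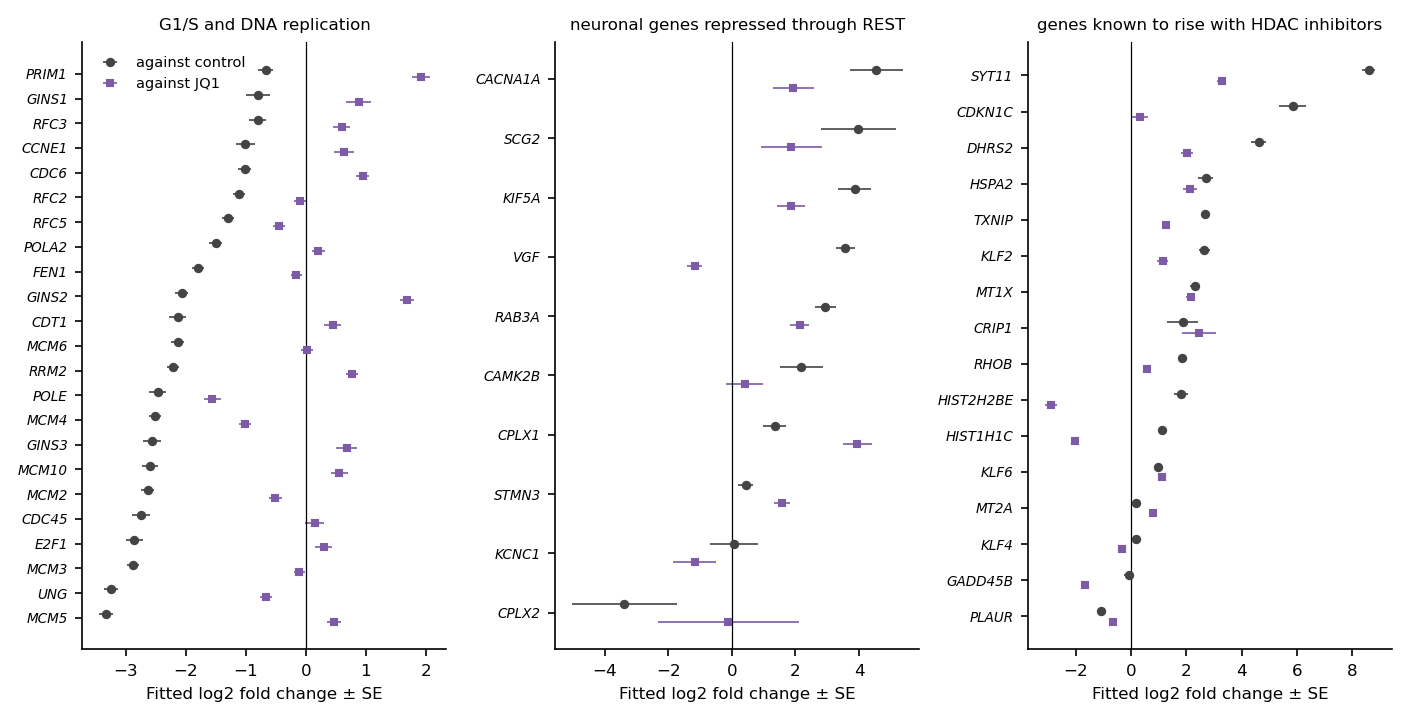
Fitted log2 fold change ± SE (horizontal axis) of the tested members reported here of 3 gene lists, with panobinostat against control as black circles and panobinostat against JQ1 as purple squares. All 23 replication genes lie left of 0 against control and on both sides of 0 against JQ1. Most of the REST-repressed neuronal genes and of the genes known to rise with deacetylase inhibitors lie right of 0 in both comparisons, with wide errors for genes of few reads such as SCG2 and CPLX2.

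Several neuronal and neuroendocrine genes rose, many of them from low levels. Of 34 neuronal genes known to be repressed through the factor REST, 15 were kept and 11 had enough reads to test, of which 8 rose, 0 fell and 3 did not pass, beside 32.8% higher and 33.0% lower of all kept genes. The median of the 11 was 2.93, beside 0.03 for all kept genes. Since a gene silent in control could be tested only if it was read elsewhere, that median leans on genes that had room to rise. CACNA1A, a calcium channel subunit, had 1.02 and 0.630 CPM with panobinostat, 0.076 and 0.352 CPM with JQ1 and 0.0249 and 0.0398 CPM in control. With 3 control reads in all, its ratio to control was 24.7 with an interval of 8.11 to 123.0, and it passed against control (adjusted p = 7.07e-05) and against JQ1 (adjusted p = 0.0156). REST itself had 51.1 and 50.8 CPM with panobinostat and 60.7 and 58.4 CPM in control and did not pass, at -0.22 ± 0.13 (adjusted p = 0.135). In a fit of the 4 libraries alone REST passed as lower, at -0.21 (adjusted p = 0.0172).

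Among neuroendocrine secretory markers 13 of 23 were kept and 10 tested, of which 7 rose, 0 fell and 3 did not pass, beside 32.8% higher and 33.0% lower of all kept genes. As with the REST list, members silent in control, such as CALCA, could be tested only because they were read elsewhere, so the count is no support for the whole list. CALCA, which encodes calcitonin and its related peptide, had 0.876 and 0.990 CPM with panobinostat and 0 reads in control, at least 28.1-fold higher. SCG2, secretogranin II, had 0.142 and 0.608 CPM with panobinostat and 0 and 0.0398 CPM in control, and its call was lost without the second panobinostat library, at 2.56, or the first control library, at 3.14. Other members stood higher: ENO2, a neuronal enolase chosen after its values were seen, had 53.4 and 49.6 CPM with panobinostat and 18.6 and 18.2 CPM in control. Of the 9 tested genes of synaptic vesicles 5 rose (55.6%, beside 32.8% of all kept genes), 0 fell (beside 33.0%) and 4 did not pass. The rises include SYT11, named above, and SV2B, which had 0 control reads and could be tested only because it was read elsewhere. All 3 kept tubulin genes rose. TUBA1A, an alpha-tubulin, had 120 and 111 CPM with panobinostat and 5.33 and 5.55 CPM in control, a log2 change of 4.41 ± 0.19 (adjusted p = 5.41e-14). The lineage factors gave no common direction: of 6 tested, 2 rose, 2 fell and 2 did not pass. FOXA2, a relative of FOXA1, had 1.56 and 1.49 CPM with panobinostat and 0.199 and 0.199 CPM in control, a rise beside the fall of FOXA1.

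Single genes of cell death changed, and their lists held few kept genes. Of the 6 kept pro-apoptotic BCL2 family genes, 2 rose (33.3%, beside 32.8% of all kept genes), 1 fell (16.7%, beside 33.0%) and 3 did not pass. Against JQ1, 0 of the 6 were higher (beside 32.5%), 2 lower (33.3%, beside 26.6%) and 4 did not pass. PMAIP1, the BH3-only protein NOXA, had 76.1 and 94.2 CPM with panobinostat and 24.3 and 23.6 CPM in control, a log2 change of 1.83 ± 0.15 (adjusted p = 1.49e-09). BCL2L11, the BH3-only protein BIM, had 38.4 and 37.3 CPM with panobinostat and 12.7 and 13.9 CPM in control, a log2 change of 1.51 ± 0.11 (adjusted p = 1.84e-10). With JQ1, BCL2L11 was higher still, at 91.5 and 87.1 CPM. PMAIP1 had 72.0 and 74.2 CPM with JQ1 and did not pass between the drugs. BAX, an effector that permeabilises mitochondria, had 27.0 and 26.8 CPM with panobinostat and 109 and 110 CPM in control, a log2 change of -2.02 ± 0.13 (adjusted p = 3.20e-11). Among 6 death receptor and caspase genes 3 rose and 3 fell. BIRC3, an inhibitor of apoptosis and NF-kB target, had 686 and 740 CPM with panobinostat, 107 and 116 CPM with JQ1 and 34.3 and 34.4 CPM in control. The log2 change of BIRC3 was 4.37 ± 0.13 against control (adjusted p = 6.27e-16) and 2.68 ± 0.12 against JQ1 (adjusted p = 1.00e-12). CASP8, the caspase that death receptors start, had 21.2 and 26.0 CPM with panobinostat and 37.6 and 37.1 CPM in control, a log2 change of -0.66 ± 0.13 (adjusted p = 0.000164). BCL2, BCL2L1, MCL1 and RB1 overlapped another gene and were not kept.

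Of 18 tested NF-kB and cytokine genes 6 rose (33.3%, beside 32.8% of all kept genes), 11 fell (61.1%, beside 33.0%) and 1 did not pass, with a median of -0.92. The share of rises was near that of all kept genes and the share of falls was above it. CCL20, a chemokine for cells with the receptor CCR6, had 103 and 123 CPM with panobinostat, 2.99 and 2.06 CPM with JQ1 and 2.42 and 3.66 CPM in control. Its log2 change was 5.20 ± 0.18 against control (adjusted p = 2.57e-15). CXCL3, a relative of CXCL2, had 1.51 and 1.71 CPM with panobinostat and 13.4 and 13.8 CPM in control. Of 19 tested interferon-stimulated genes 5 rose (26.3%), 8 fell (42.1%) and 6 did not pass. IFIT1, which binds foreign RNA, had 110 and 117 CPM with panobinostat, 13.2 and 10.9 CPM with JQ1 and 10.2 and 10.3 CPM in control. IFIT3, of the same family, had 6.27 and 6.53 CPM with panobinostat and 17.8 and 19.0 CPM in control, so that family members moved apart. The log2 change was 3.47 ± 0.14 for IFIT1 (adjusted p = 4.06e-14) and -1.52 ± 0.18 for IFIT3 (adjusted p = 3.68e-07).

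Antigen presentation genes mostly rose against control: 10 of 15 tested rose (66.7%, beside 32.8% of all kept genes), 1 fell (6.67%, beside 33.0%) and 4 did not pass. Against JQ1, 3 were higher (20%, beside 32.5%) and 7 lower (46.7%, beside 26.6%). ULBP1, a stress ligand for natural killer cells, had 11.1 and 10.2 CPM with panobinostat, 7.78 and 7.24 CPM with JQ1 and 0.449 and 0.438 CPM in control. TAP2, a peptide transporter, was the fall, with 79.2 and 73.5 CPM with panobinostat and 265 and 259 CPM in control. HLA and ULBP genes have close relatives with which reads may be shared. Germline and cancer-testis antigens stayed near silence: of 22 kept genes only MAGEA6 had enough reads to test, with 0.805 and 1.40 CPM with panobinostat and 0.224 and 0.497 CPM in control. Its call was lost without the second panobinostat or the first control library, at 1.11 each.

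AP-1 and immediate early genes did not all follow FOSL1. Of 15 tested members of this mixed list 9 rose, 4 fell and 2 did not pass, beside 32.8% higher and 33.0% lower of all kept genes. Against JQ1, 5 were higher (33.3%, beside 32.5%), 7 lower (46.7%, beside 26.6%) and 3 did not pass. ATF3, a stress-induced AP-1 partner, had 28.4 and 30.0 CPM with panobinostat and 5.21 and 5.07 CPM in control, a log2 change of 2.51 ± 0.15 (adjusted p = 6.81e-12). It was higher with JQ1, at 41.7 and 43.3 CPM. Of 9 epithelial junction and keratin genes 5 rose and 4 fell. CLDN1, a tight junction claudin, had 304 and 319 CPM with panobinostat and 115 and 113 CPM in control, and PKP3, a desmosome protein, had 73.7 and 72.8 CPM with panobinostat and 530 and 496 CPM in control. The log2 change was 1.45 for CLDN1 (adjusted p = 8.34e-08) and -2.81 ± 0.11 for PKP3 (adjusted p = 3.12e-14). Of 7 tested mesenchymal genes 5 rose, 0 fell and 2 did not pass. SNAI1, a repressor of epithelial genes, had 4.64 and 4.97 CPM with panobinostat and 0.0997 and 0.458 CPM in control. Notch pathway genes divided 6 higher to 4 lower among 12, with the ligand DLL1 at -2.67 ± 0.17 and the target HEY1 at 3.41 ± 0.44.

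Beside the same 32.8% and 33.0% of all kept genes, stress pathways differed in direction. Metallothioneins, which bind zinc and copper, gave 4 rises, 0 falls and 2 not passing among 6 tested. Of the 6, 5 were higher than with JQ1 (83.3%, beside 32.5% of all kept genes). MT1X had 123 and 141 CPM with panobinostat, 32.2 and 27.0 CPM with JQ1 and 27.8 and 26.1 CPM in control. MT3, a brain form, had 2.37 and 2.59 CPM with panobinostat and 0 reads in control, at least 74.7-fold higher. Metallothionein genes are near copies of each other, so single members are uncertain. Of 16 thioredoxin and NRF2 target genes 10 rose, 1 fell and 5 did not pass. AKR1C3, an aldo-keto reductase with near-identical relatives, had 19.7 and 22.2 CPM with panobinostat and 1.72 and 1.69 CPM in control. HMOX1, the haem-degrading enzyme, had 8.50 and 8.28 CPM with panobinostat and 1.54 and 1.83 CPM in control. The ATF4 stress list, in contrast, gave 3 rises and 9 falls among 14 against control. Against JQ1, 0 of the 14 were higher (beside 32.5% of all kept genes) and 13 lower (92.9%, beside 26.6%). ASNS, asparagine synthetase, had 38.0 and 41.9 CPM with panobinostat, 332 and 335 CPM with JQ1 and 18.4 and 20.9 CPM in control. TRIB3, a pseudokinase, had 7.53 and 7.99 CPM with panobinostat and 29.3 and 27.7 CPM in control. Among 13 heat shock genes 2 rose, 5 fell and 6 did not pass, with HSPA2 at 2.70 ± 0.26 and HSPH1 at -1.70 ± 0.14.

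Metabolic lists showed no single direction beside the 32.8% and 33.0% of all kept genes. Of 13 cholesterol synthesis genes 6 rose, 4 fell and 3 did not pass. Against JQ1, 0 of these were higher (beside 32.5% of all kept genes) and 9 lower (69.2%, beside 26.6%). INSIG1, the sterol-sensing anchor of this pathway, had 18.9 and 18.9 CPM with panobinostat and 6.28 and 6.13 CPM in control. Of 13 genes of glycolysis and hypoxia 6 rose, 4 fell and 3 did not pass. SLC2A3, the glucose transporter GLUT3, had 73.8 and 74.1 CPM with panobinostat, 3.5 and 3.27 CPM with JQ1 and 5.63 and 6.01 CPM in control. EGLN3, an oxygen-sensing hydroxylase, had 37.9 and 42.0 CPM with panobinostat, 13.9 and 13.4 CPM with JQ1 and 3.31 and 2.92 CPM in control. Both genes were thus highest with panobinostat. Of 8 mitochondrially encoded mRNAs 1 rose, 2 fell and 5 did not pass, and none of the 8 had a fitted change past 2-fold.

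**Figure D5:**
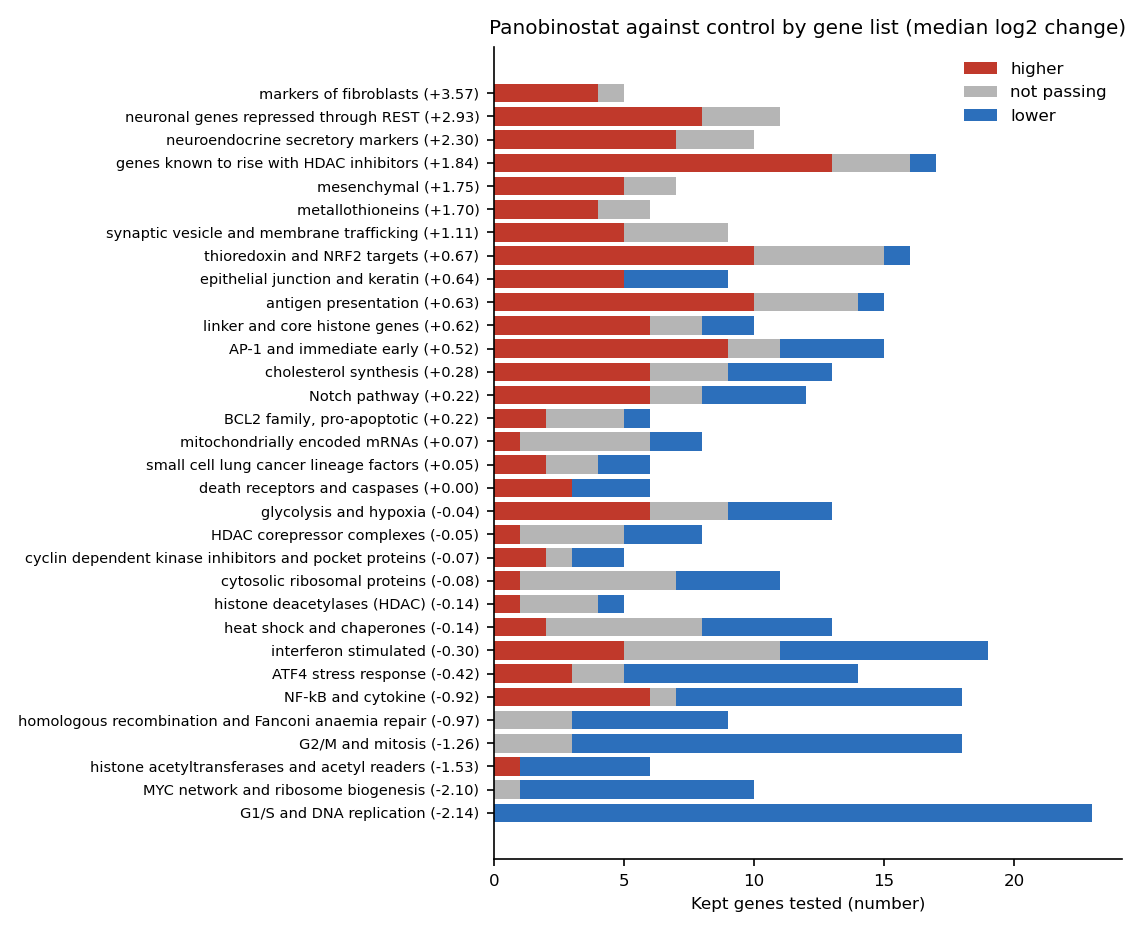
Number of kept and tested genes (horizontal axis) that passed as higher with panobinostat than control (red), did not pass (grey) or passed as lower (blue), for the gene lists reported here with at least 5 tested members. Lists run from the highest median log2 change at the top to the lowest at the bottom, with the median in brackets. The G1/S and DNA replication list is blue throughout, at 23 of 23, and no REST-repressed, neuroendocrine or mesenchymal gene tested passed as lower.

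Long noncoding genes that passed were more often higher than lower, mainly because few were lower. Of 558 tested long intergenic RNAs (typed lincRNA in the files) 178 rose (31.9%) and 61 fell (10.9%), beside 32.8% and 33.0% of all kept genes, with a median log2 change of 0.73. A further 520 genes typed lncRNA gave 216 rises (41.5%) and 67 falls (12.9%), with a median of 1.00, whereas 7945 protein-coding genes gave 2690 rises and 3003 falls, with a median of -0.04. Within the second table, against JQ1, the lincRNA genes gave 159 higher (28.5%) and 49 lower (8.78%), and the lncRNA genes 198 higher (38.1%) and 56 lower (10.8%), beside 32.5% and 26.6% of all kept genes. Most tested lincRNA genes did not pass in either comparison. Of the kept genes, 558 of 3396 typed lincRNA and 520 of 1622 typed lncRNA had enough reads to test. A gene silent in control could be tested only if it was read elsewhere and had no room to fall. The medians and the few falls lean on such genes. TINCR, a noncoding RNA of epidermal differentiation chosen after its values were seen, had 20 and 16.5 CPM with panobinostat, 4.43 and 3.62 CPM with JQ1 and 1.07 and 0.696 CPM in control. Small RNAs without a poly(A) tail went the other way. Of 14 tested snoRNA genes 11 fell (78.6%, beside 33.0% of all kept genes) and 1 rose (7.14%, beside 32.8%). RMRP, the RNA of the RNase MRP complex and likewise chosen after its values were seen, had 0.568 and 1.33 CPM with panobinostat and 101 and 41.0 CPM in control. The control libraries differed more than 2-fold from each other in RMRP. Libraries of the series without panobinostat ran from 0.465 to 101 CPM in RMRP, so its low level was not particular to panobinostat.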

How the data were processed

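Poly(A) RNA was sequenced in 16 libraries, 8 groups of 2, per the labels. The authors deposited whole-number read counts per gene and RPKM, which are those counts scaled to gene length and library total. Reads were mapped with STAR 2.5.1 to GRCh38 and tested with DESeq2, per the submitters' processing notes. No source used here names the counting tool or its use of strand. Positions in the files do not match GRCh38, so none are printed, and only their overlaps were used. A tRNA row of 148 bases whose position spans 127032826 bases was not taken as a gene in the overlap rule, which would otherwise keep 21081 rows. Through NCBI gene numbers, 27 symbols that a spreadsheet had turned into dates were put back.

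The counts of all 16 libraries were fitted together in edgeR 4.0.16 (R 4.3.3) by quasi-likelihood with a term for each group, TMM-scaled sizes and the default filter on low counts (filterByExpr), leaving 22263 genes. Benjamini-Hochberg adjustment ran over all 22263 before kept genes were read out. The approximate SE is the size of the log2 change over the root of its F statistic. Depth was 39996881 to 64060919 reads, and intervals from reads cover counting error only.

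Genes were named by rules. The first took the 10 largest rises and 10 largest falls that passed, with at least 10 CPM and no overlap between panobinostat and control. Others took 8 and 8 that differed from control and JQ1 alike, up to 2 rises and 2 falls per list, and fixed genes. The members, lists and rules were chosen with earlier results of these data known. Same-numbered libraries did not deviate together (r = -0.03 against control, -0.004 against JQ1), and every pair of duplicates differed by more than sampling noise. DESeq2 1.42.0, other size factors, other filters and left-out libraries were tried. Some genes and lists are not reported here.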

Additional observations from a re-analysis of the deposited data

Results flagged for a closer look

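The genes set aside because they overlap another gene were more often read with panobinostat and unread in control. Among 22668 overlapping rows, 297 had at least 1 CPM in both panobinostat libraries and no read in either control library. The same held for 23 of the 21923 kept rows. The reverse, no read with panobinostat and at least 1 CPM in both control libraries, was found for 0 overlapping and 0 kept genes. Of the 297 overlapping genes, 162 had at least 1 CPM in all libraries of the second table and no read in any library of the first. These 162 thus followed the table and were not particular to panobinostat. The pattern was found for 0 of the kept genes. The 23 kept genes include CD70 and ATCAY, named in the report. Overlapping genes and the table were not tested apart.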

How the results depend on the processing

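The counts of kept genes called against control stayed within 1.5 times of 3305 higher and 3325 lower under every alternative run except one, and the same held for 3271 higher and 2677 lower against JQ1. Requiring no other gene within 1000 bases left 2104 lower against control and 1680 lower against JQ1, with 6774 genes tested in place of 10066. Leaving out 1 library gave 2708 to 2885 higher and 3054 to 3096 lower against control, and 2670 to 2851 higher and 2280 to 2447 lower against JQ1. A fit of the 4 libraries with a replicate block gave 3211 higher and 3412 lower against control, and 3453 higher and 3019 lower against JQ1, though the numbers pair nothing in the labels. DESeq2's Wald test called 3297 higher and 3081 lower against control. Dropping the overlapping genes before the fit gave 3365 higher and 3200 lower against control. Against JQ1 it gave 3014 higher and 2972 lower, so the excess of higher genes against JQ1 was small in that fit. A further 2 alternatives were added after seeing the data: the literal overlap rule gave 3158 and 3171, and a fit without sanguinarine plus panobinostat, whose duplicates differed most, 3378 and 3529. No named gene changed direction under any of these. Among named genes HDAC1 (-0.15), BCL2A1 (-0.68) and ND1 (-0.29) lost their call under DESeq2's size factors, and leaving out 1 library cost 4 to 11 of 153 named genes theirs. HDAC8 and REST passed when only the 4 libraries compared were fitted, at -0.29 and -0.21. The cause was not tested. Depth limits genes of few reads, whose fold changes are bounds or wide intervals.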

Other observations

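Duplicates of panobinostat differed more than those of control, at 14.78 for panobinostat and 6.05 for control in chi-square over its degrees of freedom, where sampling noise alone gives about 1. The second JQ1 library held a read in 13901 kept genes and the first in 10945, although both had a like number at 1 CPM or more, so low JQ1 levels such as that of NOVA2 (0.0507 and 0.428 CPM) differ between its duplicates. The labels were compared through HMOX1, which had 359 and 368 reads in the libraries labelled panobinostat alone and 10586 and 11080 in those labelled sanguinarine with panobinostat.

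Among genes with no read in control, chosen after their values were seen, NPPB, which encodes a natriuretic peptide, had 3.67 and 4.95 CPM with panobinostat and was at least 130-fold higher. LGI3, a secreted neuronal protein, had 4.36 and 4.43 CPM with panobinostat and was at least 132-fold higher. Both had at most 0.203 CPM in a JQ1 library. Of the noncoding genes chosen in the same way, LOC101930085 had 92.4 and 86.6 CPM with panobinostat, 9.4 and 9.13 CPM with JQ1 and 7.80 and 8.20 CPM in control.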
